A study of Homo sapiens with 12 samples.

Results

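Annotated read-through genes are gene models that run from one gene into the next gene on the same strand, and their names join the names of the 2 genes. They were found in the transcript tables of 6 poly-A libraries as every gene on a chr-named sequence whose name has the form A-B, where A and B are themselves gene names on the same chromosome and strand. This rule gave 132 gene identifiers (131 names, since ARMCX5-GPRASP2 has 2 identifiers) of 60656 genes on chr-named sequences and 67053 genes in all. It used names, chromosome and strand only, and no distance or measured value, so a member need not run through both parents. A is called the upstream gene here and B the downstream gene. In all libraries the cells were HEK293T, a human embryonic kidney line that expresses the large T antigen. They were transfected with 2 µg of a GFP plasmid and taken after 48 h. The plasmid carried no added trigger (GFP group), a trigger from BCL2L11 (BCL2L11 group) or a trigger from TRIM9 (TRIM9 group), each with 2 libraries. A trigger here is a stretch of RNA that pairs with a microRNA and leads to its degradation, and the study asked what such triggers do in these cells. The reagent was either polyethylenimine or lipofectamine, with no record per sample in the sources used here. The labels do not say that the 2 libraries of a group came from separate cultures, so p-values measure only the spread between these libraries, which may be technical.

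Transcription of a protein-coding gene normally ends after the poly-A signal has been cut, when the polymerase is released downstream. Where the polymerase runs on into the next gene on the same strand, splicing can join exons of both genes, usually skipping the last exon of the upstream gene and the first exon of the downstream gene. Such joined transcripts may encode a fusion protein, an altered form of 1 of the 2 proteins, or an RNA with an early stop codon that is open to nonsense-mediated decay. A joined model shares most of its exons with its 2 parent genes, so reads in shared exons are divided among the 3 genes by the assembler, and the levels of A-B, A and B are uncertain against each other. An FPKM of exactly 0 may be a failed estimate of this division, and such a value is given here as listed at 0. FPKM is the number of fragments per kilobase of transcript, scaled to the depth of the library, and a gene's FPKM is the sum over its transcript models.

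RAB4B-EGLN2 was the read-through gene with the lowest p in both comparisons with GFP, so its locus is shown first. RAB4B encodes a small GTPase of endosomal recycling, and EGLN2 encodes a prolyl hydroxylase that marks hypoxia-inducible factor for degradation. RefSeq lists RAB4B-EGLN2 as a long noncoding RNA gene. The 30 bases before each RefSeq start at this locus are shown because the starts of the 3 genes say where each model begins relative to the others. They are on the plus strand of GRCh38.p14 and run 5′ to 3′, and capitals mark CG dinucleotides.
RAB4B-EGLN2 (chr19:40778189-40778218): gaaagCGtCGcctggtatccagctgcCGga
RAB4B (chr19:40778217-40778246): gagCGggtCGCGcCGgaggggggCGgaggc
EGLN2 (chr19:40799161-40799190): gCGgggCGgggCGtCGCGCGCGgtgggggc
EGLN2, other start (chr19:40799492-40799521): tggagggggaggggagggggtcCGagCGgc
The RAB4B-EGLN2 and RAB4B windows are adjacent and share only positions 40778217 and 40778218, and each is a different stretch from the windows of the 2 EGLN2 starts. CG dinucleotides numbered 3 and 5 in the windows of RAB4B-EGLN2 and RAB4B, and 7 and 2 in those of EGLN2.

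Many read-through genes began where the upstream gene begins. The start in the deposited tables lay within 100 bp of the start of A for 66 of 132, and the end lay within 100 bp of the end of B for 60. A lay upstream of B in 131 of 132, the exception being SUGT1P4-STRA6LP. A and B overlapped in 14 loci, were separated by less than 10000 bp in 76 and by at least 10000 bp in 42, of which 6 had a gap of at least 50000 bp. The median gap was 4644.5 bp and the largest was 573553 bp. The start of the read-through gene minus that of A ran from -2.15625e+07 to 113327 bp. The 132 genes held 440 transcript models, 405 of which overlapped both A and B, and 38 genes had 1 model. In 3 genes no model overlapped both parents. They were ARMCX5-GPRASP2 (ENSG00000286237.1), PDCD6-AHRR and PTGER4P2-CDK2AP2P2, which are members by name and not by a model that spans both parents. RefSeq start sites were found for 96 of the read-through genes, and for 91 of these A also had one. The 2 starts were the same in 57, within 50 bp in 16, at 51 to 1000 bp in 13 and over 1000 bp apart in 5. The letters GGGCGG, the core of a GC box, occurred on either strand within the 250 bases before the start in 56 of the 96 (58.33%), against 42.31% of all 27305 genes with a RefSeq start. The median number of CG dinucleotides in these 250 bases was 17.5, against 11 for all genes. For these values 1 start per gene was used. Where a read-through gene and A share a start, the window before it belongs to both. The same values were not computed for the genes A, so they are not shown to be particular to read-through genes.

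Each library listed 250719 transcripts, with 83584 to 110534 above 0, fewest in GFP replicate 1, and the transcript coverage summed to 3.397 to 4.523 gigabases per library. The plasmid genes followed the labels. BCL2L11 stood at 5.40 and 6.15 FPKM in GFP, 11484 and 11275 in BCL2L11 and 3.95 and 6.32 in TRIM9 libraries, and TRIM9 stood at 1.74 and 2.92, 1.21 and 2.30, and 5297 and 3948 FPKM. Of 7 genes typical of HEK293 cells, 6 reached 1 FPKM in all 6 libraries and PAX2 did not, while 4 of 20 markers of other cell types, PTPRC, CD3E, HBB and KRT5, were listed at 0 in all. Other markers were detected, with the alpha globin gene HBA1 at 2.35 to 7.45 FPKM, EPCAM at 0.611 to 1.32 FPKM and MUC1 at 0.468 to 2.14 FPKM. The fibroblast marker COL1A1 stood at 1.27 to 4.02 FPKM. COL1A1, COL1A2 and COL3A1 were each highest in BCL2L11 replicate 1, where the latter 2 stood at 1.56 and 1.69 FPKM. The summed FPKM of 7 fibroblast, 7 blood and 6 epithelial markers was 1.57 to 7.68, 3.08 to 8.37 and 2.21 to 4.17 per library. The replicates differed from each other in some HEK293 markers. IRS4, an insulin receptor substrate high in this line, stood at 8.61, 9.46 and 16.0 FPKM in replicate 1 of GFP, BCL2L11 and TRIM9 and at 65.9, 65.4 and 80.3 in replicate 2. In RNA from a bulk culture, fewer cells that express a gene and less RNA per cell cannot be told apart.

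Fewer than 1 in 2 of the read-through genes reached the level at which a difference was tested. The minimum for testing, 1 FPKM or more in 2 or more libraries, was reached by 63 of 132, against 15183 of all 67053 genes. Of the 69 others, 56 were above 0 in at least 1 library and 13 were listed at 0 in all 6, among them INS-IGF2, BUB1B-PAK6, LY75-CD302 and GIMAP1-GIMAP5. In all, 71 genes were above 0 in every library and 35 reached 1 FPKM in every library. Just outside the filter were SYNJ2BP-COX16 and PPT2-EGFL8, whose second-highest library stood at 0.949 and 0.989 FPKM, and just inside were PRR5-ARHGAP8 and POC1B-GALNT4 at 1.12 and 1.13. The level of the parents went with whether a gene passed. Where both parents averaged at least 1 FPKM, 43 of 65 passed (66.15%). Where 1 parent did, 19 of 46 passed (41.3%). Where neither did, 1 of 21 passed, and this was JMJD7-PLA2G4B with a mean of 1.58 FPKM against 0.424 for JMJD7 and 0.300 for PLA2G4B. By distance, 40 of 76 with a gap under 10000 bp (52.63%), 16 of 42 with a larger gap (38.1%) and 7 of 14 with overlapping parents passed. Across the 63 genes, the mean level of A-B and that of A had a Spearman rho of 0.432, and A-B and B had one of 0.288. Across all 132 genes the values were 0.500 and 0.477. These are descriptions across genes of the same libraries, in which A-B, A and B share reads. In 54 of the 63 genes all of the FPKM lay in models that overlap both parents. In 3 it was under 50%, namely both ARMCX5-GPRASP2 identifiers and IQCJ-SCHIP1, where 2.04% of the FPKM lay in such models. Most of the level listed under IQCJ-SCHIP1 thus lay in models that do not overlap both parents.

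**Figure D1:**
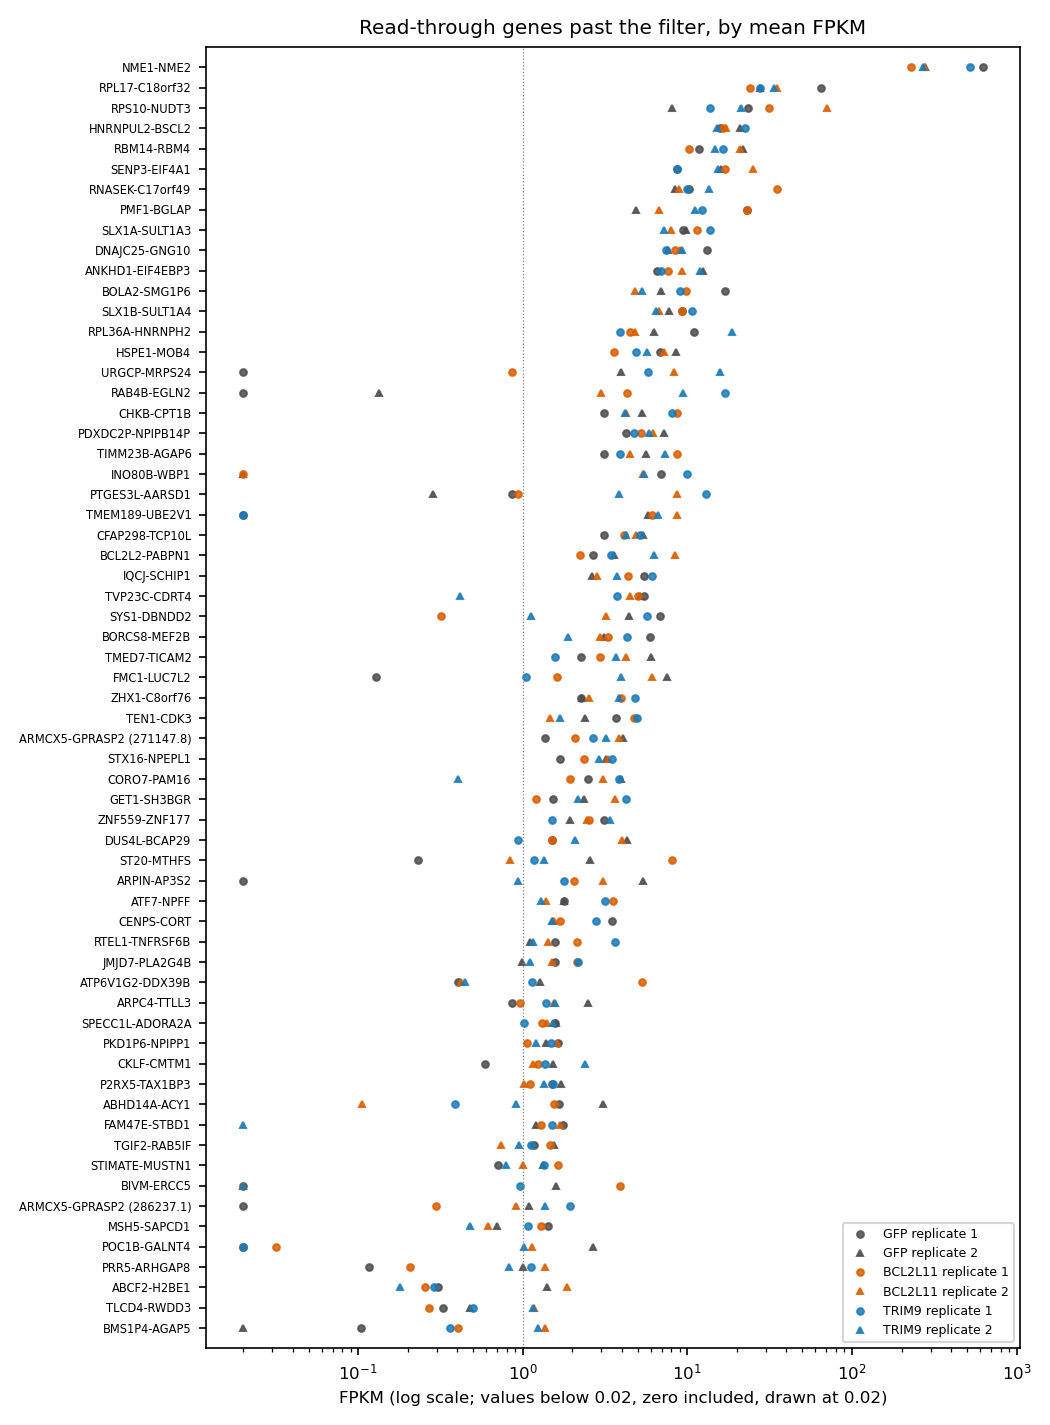
FPKM of the 63 read-through genes that passed the filter, ordered by their mean, on a log scale. Each point is 1 library (colour for the group, circles for replicate 1 and triangles for replicate 2), and values below 0.02 FPKM, 0 included, are drawn at 0.02. NME1-NME2 lies apart at the top, most other genes lie below 10 FPKM, and 10 genes have at least 1 library listed at 0.

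The levels ran from a mean of 0.580 FPKM for BMS1P4-AGAP5 to 366 FPKM for NME1-NME2, with a median of 3.28 FPKM. A mean of at least 10 FPKM was reached by 8 of the 63, and 20 were below 2. NME1-NME2 (ENSG00000011052.21, chr17:51153590-51171744, plus strand, hg38) joins 2 nucleoside diphosphate kinase genes, which make nucleoside triphosphates. Its FPKM was 623 and 277 in GFP, 229 and 276 in BCL2L11 and 520 and 268 in TRIM9 libraries. The lower GFP library and the higher BCL2L11 library lay next to each other, so these groups were separate only by a small margin, and replicate 1 was the higher of the 2 libraries in GFP and TRIM9 and the lower in BCL2L11. The parents were also high, with NME1 at 129 to 411 FPKM and NME2 at 227 to 1273 FPKM over the 6 libraries.

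The next genes joined a ribosomal protein gene to its neighbour. RPL17-C18orf32 stood at 64.7 and 27.6 FPKM in GFP, 23.9 and 35.3 in BCL2L11 and 27.8 and 33.5 in TRIM9 libraries, with GFP replicate 1 apart from the rest. RPL17 itself, a protein of the large ribosomal subunit, stood at 708 to 2188 FPKM, so the joined model made up a mean share of 3.13% of the summed FPKM of A-B, A and B. RPS10-NUDT3 stood at 23.2 and 8.11 FPKM in GFP, 31.3 and 70.6 in BCL2L11 and 13.7 and 21.2 in TRIM9 libraries. All 3 read-through genes with a ribosomal protein gene upstream passed the filter, the other being RPL36A-HNRNPH2, and their mean shares were 0.804% to 3.13%, beside upstream parents that are among the most abundant mRNAs of a cell. By contrast HNRNPUL2-BSCL2, which joins an RNA-binding protein gene to the seipin gene of lipid droplet assembly, had a mean share of 46.2%. Its FPKM was 15.8 and 20.9 in GFP, 16.5 and 17.2 in BCL2L11 and 22.3 and 15.2 in TRIM9 libraries, an overlapping set of values in the 3 groups. RBM14-RBM4, of 2 RNA-binding protein genes, had a mean of 15.9 FPKM, and SENP3-EIF4A1, of a SUMO protease and a translation initiation helicase, had a mean of 15.1 FPKM. RNASEK-C17orf49 and PMF1-BGLAP had means of 14.4 and 13.5 FPKM. The other genes among the 12 of highest mean were SLX1A-SULT1A3, DNAJC25-GNG10, ANKHD1-EIF4EBP3 and BOLA2-SMG1P6, at 8.83 to 9.93 FPKM. Values of SLX1A-SULT1A3, SLX1B-SULT1A4, BOLA2-SMG1P6, PDXDC2P-NPIPB14P, TIMM23B-AGAP6, BMS1P4-AGAP5 and PKD1P6-NPIPP1 are uncertain, since these loci have near-identical copies between which reads can be split.

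The joined model usually had a lower level than its upstream parent. Over the 63 genes the mean read-through share, FPKM of A-B as a percent of the summed FPKM of A-B, A and B, had a median of 12.4% and ran from 0.804% (RPL36A-HNRNPH2) to 79.2% (PDXDC2P-NPIPB14P). A had a higher mean than A-B in 48 of 63 and B in 38, and A-B lay below both in 31 and above both in 8. The share was below 10% in 24 genes and above 50% in 6. The per-library medians of the share were 9.55% and 16.6% in GFP, 11.97% and 15.64% in BCL2L11 and 12.53% and 12.51% in TRIM9, so the values of the BCL2L11 and TRIM9 groups lay within the range of the GFP group. The highest shares were as follows. PDXDC2P-NPIPB14P, of 2 pseudogenes, held 79.2% at a mean of 5.57 FPKM, and IQCJ-SCHIP1 held 70.0% with IQCJ listed at 0 in all 6 libraries. As given above, most of the IQCJ-SCHIP1 level lay in models that do not overlap both parents, so its share is not one of joined transcripts. SLX1B-SULT1A4 and SLX1A-SULT1A3, which join copies of a structure-specific endonuclease subunit and of a sulfotransferase, held 58.9% and 57.4%. FAM47E-STBD1 (52.5%, mean 1.24 FPKM), TEN1-CDK3 (48.1%, mean 3.16 FPKM) and ZNF559-ZNF177 (41.8%, mean 2.49 FPKM) followed, with HNRNPUL2-BSCL2 (46.2%) between the last 2. TEN1 is a subunit of the CST telomere complex, and STBD1 binds glycogen. JMJD7-PLA2G4B, with both parents below 1 FPKM, held 69.7%.

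No read-through gene passed the test between any 2 groups in the fit of group means over all 6 libraries. With limma on log2(FPKM + 1) over all 15183 genes tested and Benjamini-Hochberg adjustment, 0 of 63 had an adjusted p below 0.05 in each of the 3 comparisons. Of all genes, 0.00659% passed for BCL2L11 against GFP, 0.00659% for TRIM9 against GFP and 0.0132% for BCL2L11 against TRIM9. At an unadjusted p below 0.05, 2 of 63 (3.17%) were counted in each comparison, against 0.547%, 1.15% and 0.645% of all genes in the same order. RAB4B-EGLN2 was 1 of the 2 in all 3 comparisons. RPS10-NUDT3 was the other in BCL2L11 against GFP and in BCL2L11 against TRIM9. The members were chosen with earlier results of these data known, so these counts are descriptions and not support for an excess. A log2 difference of at least 1 in size was seen for 5, 6 and 6 of the 63 (7.94%, 9.52% and 9.52%), against 0.705%, 0.981% and 0.494% of all genes. The read-through genes also had a larger error, with a median SE of 0.44 against 0.36 for all genes tested. The part of this error in the counts was not tested. The median log2 difference over the 63 genes was 0.03, 0.00 and -0.01, against -0.08, -0.04 and -0.04 for all genes. The comparisons with GFP share the GFP libraries, and their values are set side by side without an overlap count.

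**Figure D2:**
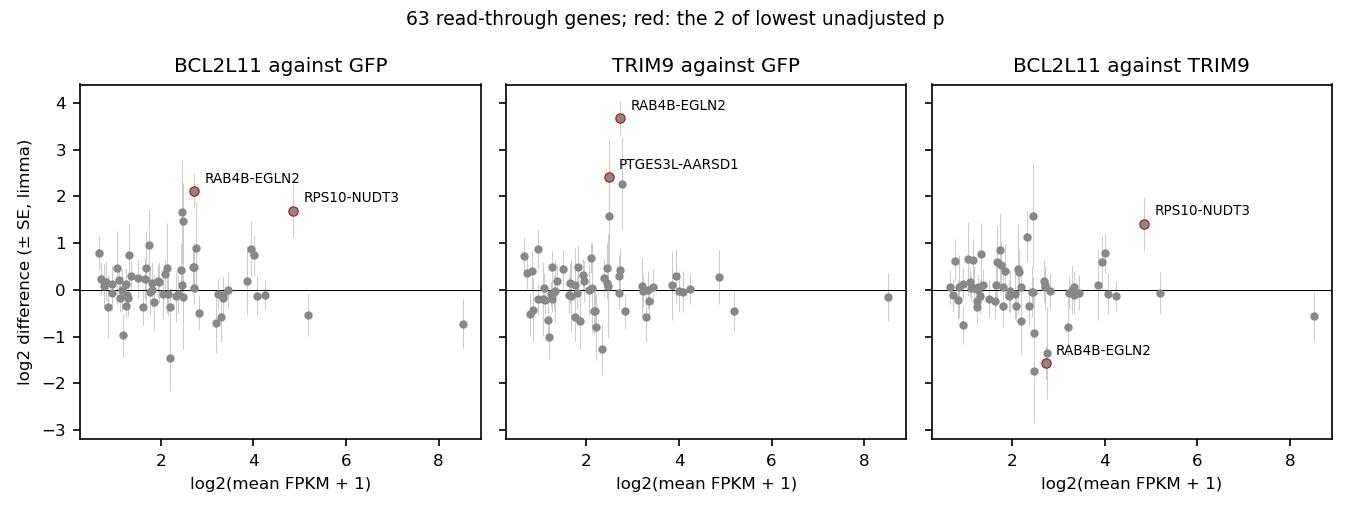
Log2 difference of log2(FPKM + 1) between 2 groups (vertical axis, with the limma SE as a bar) against log2 of the mean FPKM plus 1 (horizontal axis) for the 63 read-through genes in the 3 comparisons. Red points with names are the 2 genes of lowest unadjusted p in each. RAB4B-EGLN2 stands at 2.12 in BCL2L11 against GFP and at 3.68 in TRIM9 against GFP, above the other genes, and at -1.56 in BCL2L11 against TRIM9.

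RAB4B-EGLN2 (ENSG00000171570.11, chr19:40778242-40808418, plus strand, hg38) differed most between the groups. It was listed at 0 and stood at 0.134 FPKM in GFP, at 4.31 and 3.01 in BCL2L11 and at 16.9 and 9.38 in TRIM9 libraries. Both libraries of a trigger group were above both GFP libraries, and both TRIM9 libraries were above both BCL2L11 libraries. Nearly all of this was 1 transcript model of 12 exons and 2774 bases, which held 99.1% of the gene's FPKM and had a mean read depth of 0 and 0 in GFP, 21.1 and 14.4 in BCL2L11 and 90.1 and 45.9 in TRIM9 libraries. The upstream parent RAB4B, the gene whose start lies next to that of the joined model, was low in every library at 1.85 and 0.557, 1.27 and 0.802, and 1.29 and 0.462 FPKM in the same order of groups. The downstream parent EGLN2 stood at 17.9 and 16.1 FPKM in GFP, 30.12 and 12.04 in BCL2L11 and 10.01 and 4.55 in TRIM9 libraries, lowest in both TRIM9 libraries. The sum of the 3 genes varied less by group, with 19.8 and 16.8 FPKM in GFP, 35.7 and 15.8 in BCL2L11 and 28.2 and 14.4 in TRIM9 libraries. The joined model thus made up 0% and 0.795% of this sum in GFP, 12.1% and 19.0% in BCL2L11 and 59.9% and 65.2% in TRIM9 libraries. How reads in exons shared with EGLN2 were assigned cannot be told apart from a change of the transcripts with these tables.

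By limma the log2 difference of RAB4B-EGLN2 was 3.68 for TRIM9 against GFP (SE 0.37, n = 2 libraries per group, adjusted p = 0.122). For BCL2L11 against GFP it was 2.12 (SE 0.37, adjusted p = 1.0), and in both comparisons with GFP its p had rank 2 among all genes tested. For BCL2L11 against TRIM9 it was -1.56 (SE 0.37, adjusted p = 1.0). None of these passed the adjusted threshold. All other differences of read-through genes and parents named below had an adjusted p of 1.0 by limma, rounded, in each comparison. With only the GFP and TRIM9 libraries in the fit, TRIM9 against GFP had an adjusted p of 0.0105 by limma. In that fit RAB4B-EGLN2 met the FPKM minimum only through the TRIM9 libraries, where it is high, so this value is no separate support. In the group-means fit of all 6 libraries it did not pass, nor at an FPKM minimum of 5 or with no filter. The size of the log2 difference for TRIM9 against GFP depends on the pseudocount, since GFP was at or near 0. With a pseudocount of 0.1 in place of 1 this log2 difference was 6.38, so neither is a bound on the fold. EGLN2 had a log2 difference of -1.20 for TRIM9 against GFP (SE 0.51, adjusted p = 1.0) and 1.37 for BCL2L11 against TRIM9 (SE 0.51, adjusted p = 1.0). The other read-through gene with RAB4B in its name, MIA-RAB4B, which starts upstream of RAB4B, was at or below 0.932 FPKM in all libraries and did not pass the filter.

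**Figure D3:**
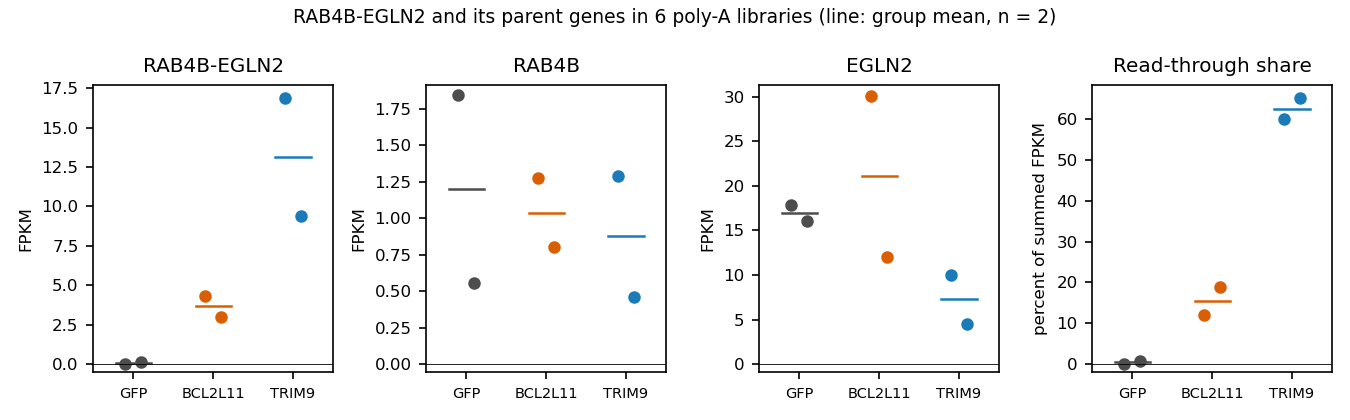
FPKM of RAB4B-EGLN2 and of its parents RAB4B and EGLN2, and the read-through share as a percent of the summed FPKM of the 3 genes, in the 6 poly-A libraries. Points are libraries, lines are means of 2 libraries, and each panel has its own vertical axis. The share is at most 0.795% in GFP, 12.1% and 19.0% in BCL2L11 and 59.9% and 65.2% in TRIM9.

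For BCL2L11 against GFP, the BCL2L11 libraries lay above both GFP libraries for 7 of the 63 genes, against 4.44% of all genes, and below both for 7, against 12.3%, a share near that of all genes. RPS10-NUDT3 was the other gene with an unadjusted p below 0.05. RPS10 is a protein of the small ribosomal subunit and NUDT3 hydrolyses diphosphoinositol phosphates. The log2 difference of RPS10-NUDT3 was 1.69 (SE 0.58, adjusted p = 1.0 by limma), and it was 1.12 without BCL2L11 replicate 2 and 0.99 without GFP replicate 2. The value of 70.6 FPKM in BCL2L11 replicate 2 stood above the other 5 libraries. The parents overlapped between these groups, with 2430 and 1022 FPKM of RPS10 in GFP against 2028 and 861 in BCL2L11 libraries, and 5.42 and 8.67 FPKM of NUDT3 against 6.29 and 6.76. SENP3-EIF4A1 stood at 8.64 and 16.1 FPKM in GFP and at 16.95 and 24.99 in BCL2L11 libraries, with a log2 difference of 0.75 (SE 0.43), which was 0.34 without GFP replicate 1. BMS1P4-AGAP5 was above GFP in both BCL2L11 libraries at levels of 1.37 FPKM or less. RNASEK-C17orf49 had a log2 difference of 0.88 (SE 0.58), which rested on 35.2 FPKM in BCL2L11 replicate 1 and was -0.05 without that library.

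Among genes that were lower with the BCL2L11 trigger, SYS1-DBNDD2, whose upstream parent encodes a Golgi membrane protein, stood at 6.80 and 4.44 FPKM in GFP and at 0.320 and 3.21 in BCL2L11 libraries (log2 difference -1.47, SE 0.70). The difference was -0.63 without BCL2L11 replicate 1 and -2.30 without BCL2L11 replicate 2. ABHD14A-ACY1, whose downstream parent encodes aminoacylase 1, stood at 1.65 and 3.08 FPKM in GFP, 1.55 and 0.106 in BCL2L11 and 0.387 and 0.913 in TRIM9 libraries. Both trigger groups lay below GFP for this gene, by a log2 difference of -0.97 and -1.01 (SE 0.46 for each). Without BCL2L11 replicate 2 the former was -0.37, and without BCL2L11 replicate 1 it was -1.57. NME1-NME2 was lower by 0.72 on the log2 scale in BCL2L11 libraries, a value of -0.14 without GFP replicate 1. HSPE1-MOB4, P2RX5-TAX1BP3 and RPL17-C18orf32 had log2 differences of -0.50, -0.34 and -0.53, each with an adjusted p of 1.0 by limma. That of HSPE1-MOB4 was -0.075 without BCL2L11 replicate 1 and -0.92 without BCL2L11 replicate 2, and that of RPL17-C18orf32 was 0.068 without GFP replicate 1.

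For TRIM9 against GFP, 7 of the 63 genes lay above both GFP libraries in both TRIM9 libraries, against 6.66% of all genes, and 6 lay below, against 11.2%. PTGES3L-AARSD1 was the other gene with an unadjusted p below 0.05. AARSD1 is an editing factor that removes wrongly attached amino acids from alanine tRNA, and PTGES3L is related to the co-chaperone p23. PTGES3L-AARSD1 stood at 0.864 and 0.286 FPKM in GFP, 0.940 and 8.65 in BCL2L11 and 13.0 and 3.85 in TRIM9 libraries. Its log2 difference was 2.41 (SE 0.80, adjusted p = 1.0), and 1.65 and 3.17 without TRIM9 replicate 1 and 2. AARSD1 stood at 52.9 and 38.0 FPKM in GFP, 53.7 and 19.9 in BCL2L11 and 26.9 and 20.4 in TRIM9 libraries, lower than both GFP libraries in both TRIM9 libraries. URGCP-MRPS24, whose downstream parent encodes a protein of the mitochondrial ribosome, was listed at 0 and stood at 3.93 FPKM in GFP, at 0.860 and 8.29 in BCL2L11 and at 5.73 and 15.8 in TRIM9 libraries. Both TRIM9 libraries were above both GFP libraries, but replicate 2 was above replicate 1 in each of the 3 groups, and the log2 difference was 2.26 (SE 0.98), and 1.11 without GFP replicate 1.

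The remaining higher genes had smaller differences. ZHX1-C8orf76, with a zinc finger and homeobox repressor upstream, stood at 2.27 and 2.31 FPKM in GFP and at 4.80 and 3.82 in TRIM9 libraries (log2 difference 0.69, SE 0.32). BMS1P4-AGAP5 and the ARMCX5-GPRASP2 model ENSG00000286237.1 had log2 differences of 0.73 and 0.86 at means below 1 FPKM. On the lower side, TVP23C-CDRT4, whose upstream parent encodes a Golgi vesicle protein, stood at 5.44 and 5.13 FPKM in GFP, 4.99 and 4.47 in BCL2L11 and 3.76 and 0.417 in TRIM9 libraries. Its log2 difference of -1.27 (SE 0.55) became -0.40 without TRIM9 replicate 2. TRIM9 replicate 2 also held the lowest values of FAM47E-STBD1, listed at 0 there, and of CORO7-PAM16 (0.403 FPKM). The log2 differences of these 2 genes, -0.64 and -0.68, were 0.02 and 0.22 without that library. HSPE1-MOB4, which joins a mitochondrial chaperonin to a kinase-complex adaptor, and DUS4L-BCAP29, which joins a tRNA dihydrouridine synthase to an endoplasmic reticulum protein, had log2 differences of -0.46 and -0.58. That of DUS4L-BCAP29 was -0.044 without GFP replicate 2 and -1.11 without GFP replicate 1.

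Between the 2 trigger groups, 4 of the 63 genes were higher in both BCL2L11 libraries, against 5.72% of all genes, and 5 were lower, against 8.44%. RPS10-NUDT3 was higher by a log2 difference of 1.41 (SE 0.58, adjusted p = 1.0), and RAB4B-EGLN2 was lower, as given above. TVP23C-CDRT4 and SENP3-EIF4A1 followed with 1.14 (SE 0.55) and 0.78 (SE 0.43). On leaving out 1 library these ran from 0.27 (without TRIM9 replicate 2) to 2.01 and from 0.41 (without TRIM9 replicate 1) to 1.16, and RPS10-NUDT3 ran from 0.84 (without BCL2L11 replicate 2) to 1.99. TMEM189-UBE2V1, INO80B-WBP1 and URGCP-MRPS24 had log2 differences of 1.58, -1.73 and -1.36 with SEs of 1.11, 1.12 and 0.98, above the median SE, and each had at least 1 library listed at 0 beside libraries of several FPKM. Leaving out 1 library moved them from 0.12 to 3.05, from -3.06 to -0.40 and from -2.52 to -0.20.

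The read-through genes had a larger median difference between replicates than their parents or all genes tested. The absolute log2 difference between the 2 libraries of a group, averaged over the 3 groups, had a median of 0.65 over the 63 genes, against 0.47 over all genes tested. It was 0.48 for the upstream parents, 0.48 for the downstream parents and 0.45 for the summed FPKM of A-B, A and B. The value of A-B exceeded that of the sum in 43 of 63 loci and exceeded those of both parents in 33. Unlike A-B, the parents were taken without an FPKM minimum, with means down to 0 for A and 0.00132 for B. Near 0, log2(FPKM + 1) can vary little between libraries, and the part of this in the parents' values was not tested. The median of the mean FPKM was 6.84 for A and 5.75 for B against 3.28 for A-B, and the part of the level in the spread was not tested. Between the highest and the lowest library A-B differed by at least 4 times, or had a library at 0, in 27 of 63, and by under 2 times in 10. The sum of the 3 genes differed by at least 4 times in 1 locus, BOLA2-SMG1P6. This sum includes A-B and lies at a higher level than A-B alone. These counts were not made over all genes tested, so they are not shown to be particular to read-through genes.

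**Figure D4:**
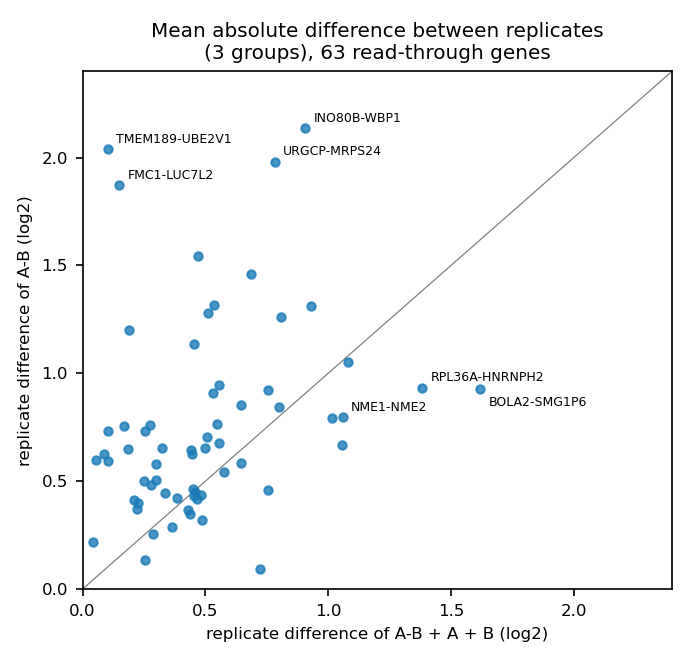
Mean absolute log2 difference between the 2 libraries of a group, averaged over 3 groups, for A-B (vertical axis) against the same for the summed FPKM of A-B, A and B (horizontal axis), with 1 point per read-through gene and the line of equal values. Of the 63 genes, 43 lie above the line, and TMEM189-UBE2V1 and FMC1-LUC7L2 lie farthest from it, with 2.04 and 1.87 for A-B against 0.10 and 0.15 for the sum.

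TMEM189-UBE2V1, which joins a plasmalogen desaturase gene to a ubiquitin-conjugating enzyme variant, was listed at 0 in GFP replicate 1 and TRIM9 replicate 1. It stood at 5.74 FPKM in GFP replicate 2, at 6.09 and 8.62 in BCL2L11 and at 6.60 in TRIM9 replicate 2. The sum of TMEM189-UBE2V1, TMEM189 and UBE2V1 differed by 1.19 times between the highest and lowest library, while TMEM189-UBE2V1 itself ran from 0 to 8.62 FPKM. INO80B-WBP1, with a chromatin remodelling subunit upstream, was listed at 0 in GFP replicate 2 and BCL2L11 replicate 1 and stood at 6.89, 5.36, 9.89 and 5.43 FPKM in GFP replicate 1, BCL2L11 replicate 2 and TRIM9 replicates 1 and 2. FMC1-LUC7L2, which joins a mitochondrial assembly factor to a splicing factor, stood at 0.129 and 7.48 FPKM in GFP, 1.61 and 6.06 in BCL2L11 and 1.04 and 3.93 in TRIM9 libraries, higher in replicate 2 of each group. Of the 63 genes, 10 were listed at 0 in at least 1 library, a count not made over all genes tested. In 6 of these 10 the locus sum differed by under 2 times over the 6 libraries. RAB4B-EGLN2 is among the 10, with a locus sum that differed by 2.48 times.

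A level reached in 1 library was found for 13 genes that did not pass the filter. These were named after their values were seen. PPAN-P2RY11 stood at 8.82 FPKM in BCL2L11 replicate 1, at 0.185 in TRIM9 replicate 1 and was listed at 0 in the other 4 libraries. NDUFC2-KCTD14, with a subunit of respiratory complex I upstream, stood at 4.32 FPKM in BCL2L11 replicate 1 and at 0.187 to 0.713 in the other 5. UBE2F-SCLY stood at 4.05 FPKM in GFP replicate 2 and at 0.331 or below elsewhere. In each of these 3 genes the other library of the same group was low, so the high value had no replicate.

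Groups were also formed by the first letters of the parents' symbols, which leave out genes of like function with other symbols. Over all read-through genes, 63 of 132 passed the filter. Of all genes tested, 0.547%, 1.15% and 0.645% had an unadjusted p below 0.05 by limma (BCL2L11 against GFP, TRIM9 against GFP, BCL2L11 against TRIM9). The groups have few members and were not tested against these shares, so the counts do not set any group apart. With a parent symbol that begins with RAB, ARF, ARP, AP3, STX, SYS1, SNX, VPS or TMED, a set rich in small GTPases and membrane traffic proteins, 7 of 10 read-through genes passed the filter, among them STX16-NPEPL1, ARPIN-AP3S2, TMED7-TICAM2 and RAB4B-EGLN2. Their median log2 differences were -0.08 for BCL2L11 against GFP and -0.12 for TRIM9 against GFP, and RAB4B-EGLN2 was the 1 member with an unadjusted p below 0.05 in each. With a parent symbol that begins with MRP, NDUF, COX, ATP5, TIMM, TOMM or PAM16, prefixes of many mitochondrial proteins, 3 of 6 passed (CORO7-PAM16, TIMM23B-AGAP6 and URGCP-MRPS24), and 0 of these had an unadjusted p below 0.05. With a parent symbol that begins with ZNF, ZSCAN, ZFP or ZKSCAN, 1 of 7 passed, ZNF559-ZNF177, with log2 differences of 0.00 and -0.06 from GFP.

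Genes that act in the steps a joined transcript depends on were listed as background. Of 38 genes of 3′ end cleavage, polyadenylation and termination, 37 were tested, and 0 passed in any comparison, nor did any have an unadjusted p below 0.05. Of all genes tested, 0.547% had such a p by limma for BCL2L11 against GFP, 1.15% for TRIM9 against GFP and 0.645% for BCL2L11 against TRIM9. The median log2 difference of the list was -0.13, -0.13 and 0.02 in the same order, against -0.08, -0.04 and -0.04 for all genes. ZC3H4, a factor of early termination, had the lowest p of this list in both comparisons with GFP. It stood at 13.6 and 19.4 FPKM in GFP, 8.67 and 13.0 in BCL2L11 and 10.4 and 10.2 in TRIM9 libraries (log2 differences of -0.57 and -0.61, SE 0.33). All 22 genes of U1 snRNP and exon definition and all 21 of nonsense-mediated decay and the exon junction complex were tested. In these 2 lists 0 genes passed and 0 had an unadjusted p below 0.05 in each comparison by limma, with median log2 differences between -0.08 and 0.04. Given the shares of all genes above, a count of 0 does not set any of these lists apart. SNRNP70, a core protein of U1 snRNP, stood at 77.1 and 119 FPKM in GFP, 258 and 102 in BCL2L11 and 200 and 91.5 in TRIM9 libraries, with replicate 1 of both trigger groups above the rest.

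The authors' deposited gene tables list 21 of the read-through genes for each trigger, of 5930 and 6131 genes, and 0 of them has a q below 0.05 there. In the authors' deposited table for TRIM9, RAB4B-EGLN2 has a fold change of 13.4 and a p-value of 0.0964, and it is not among the genes listed for BCL2L11. The 1 gene with a p below 0.05 in the authors' deposited tables was TMEM189-UBE2V1 for BCL2L11, with a fold change of 8.07 and a p of 0.0383, in whose GFP group replicate 1 was listed at 0. PTGES3L-AARSD1 has a fold change of 7.47 in the authors' deposited table for TRIM9 with a p of 0.240. The tables do not state in which direction the fold was formed. The values named here lie on the side of the deposited FPKM in which the trigger group is higher.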

How the data were processed

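Poly-A RNA was sequenced from 6 libraries, of 12 in the series. Per the submitters' processing notes, the genome build was hg38 and the tools included STAR and StringTie 2.1.3. Whether counting used strand is not given in the sources used here. Per the file headers, the deposited transcript tables, in StringTie's format, gave the FPKM and the coverage signal (read depth averaged over bases) of each transcript. The authors' deposited gene tables gave, per the file headers, the fold (a ratio), the same in log2, and p-values with q-values. Here FPKM was summed per gene, genes that reached 1 FPKM in 2 or more libraries were kept, and log2(FPKM + 1) entered limma 3.58.1 (R 4.3.3, trend, group only, all 6 libraries). Differences are on that log2 scale, which understates changes of low genes. Tests were two-sided, adjusted by Benjamini-Hochberg over all genes tested, and called at 0.05. With 2 libraries per group the smallest p of an exact test is 0.333. The script was tested on simulated data. Starts and sequences came from RefSeq GRCh38.p14.

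The members and lists were chosen with earlier results of these data known. The rule named RAB4B-EGLN2, the 12 genes of highest mean FPKM, up to 6 per direction and comparison of lowest p, the 8 of highest share with a parent of at least 1 FPKM, and up to 4 of lowest p per list. Genes listed at 0 or high in 1 library, MIA-RAB4B, JMJD7-PLA2G4B and genes named as examples of a class were named after their values were seen. Alternatives were TMM-rescaled FPKM, a pseudocount of 0.1, an FPKM minimum of 5, the fit of all genes, variance without trend, only the 2 groups compared, chr-named sequences only, a term for replicate number, leaving out each library, and other definitions of the share.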

Additional observations from a re-analysis of the deposited data

How the results depend on the processing

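Of 481 values of named genes under the alternatives, 474 kept their direction and 7 reversed, all 7 on leaving out 1 library. Many of these values were fixed in advance, since the log2 difference is a difference of group means. It stays the same under another FPKM filter, without trend, with the compared groups or chr-named sequences only, and with the replicate term. Leaving out a library of the group not compared also left it unchanged. The genes were also picked by lowest p per direction in the same data, so 474 does not measure robustness. Over the libraries left out, the log2 difference ran from -0.054 to 1.82 for RNASEK-C17orf49 and from -1.13 to 0.068 for RPL17-C18orf32 (BCL2L11 against GFP), from -1.30 to 0.024 for FAM47E-STBD1 and -1.57 to 0.22 for CORO7-PAM16 (TRIM9 against GFP), and from -0.020 to 1.31 for FAM47E-STBD1, -1.80 to 0.20 for RPL36A-HNRNPH2 and -2.08 to 0.23 for PTGES3L-AARSD1 (BCL2L11 against TRIM9). The median log2 difference over the read-through genes for BCL2L11 against GFP ran from -0.092 to 0.30, the highest without GFP replicate 2. The cause was not tested. For TRIM9 against GFP, 1 read-through gene, RAB4B-EGLN2, passed with the compared groups only and without BCL2L11 replicate 1 or 2 (0 to 1 over the libraries left out), where fewer samples entered the fit. Its adjusted p ran from 0.00938 to 1.0 over all alternatives, the latter without GFP replicate 1 or 2. Its adjusted p by limma was 0.442 at an FPKM minimum of 5 and 0.991 with no filter. In the fits with an FPKM minimum, RAB4B-EGLN2 met it only through trigger libraries, in which it is high. The number of genes past the filter was 29 at an FPKM minimum of 5 and 119 with no filter. With A-B and A alone in the denominator, the median share was 26.1% (GFP), 34.3% (BCL2L11) and 27.2% (TRIM9), against 13.1%, 13.8% and 12.5%. The TRIM9 median was 15.6% at an FPKM minimum of 5, 16.4% with the most abundant transcript only and 11.1% with only transcripts overlapping both parents, an alternative chosen after seeing the data.

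The labels state no pairing between same-numbered libraries, which share only a number. Their deviations from the group means correlated with r of 0.583, 0.493 and 0.830 between groups over all genes and 0.055, 0.401 and 0.163 over the read-through genes. With a replicate block, 1 read-through gene passed for TRIM9 against GFP (RAB4B-EGLN2, adjusted p = 0.0499 by limma) and 0 passed in the other comparisons. An unadjusted p below 0.05 by limma was seen for 7, 9 and 6 of 63 (BCL2L11 against GFP, TRIM9 against GFP, BCL2L11 against TRIM9). Of all 15183 genes, 543, 958 and 457 had such a p in the same order, and 1, 6 and 3 passed. The replicate number itself passed for 4991 of 15183 genes and 14 of 63 read-through genes. The number of libraries, 2 per group, and the division of reads among overlapping models limit the precision.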
